A study of Homo sapiens with 10 samples.

Results

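The 10 genes described here code for parts of the BCR-ABL and JAK-STAT5 signalling pathway and for proteins that the pathway is known to induce: BCR, ABL1, EPOR, JAK2, STAT5A, STAT5B, PIM1, CISH, SOCS2 and SOCS3. They were taken by symbol from a table of 23284 genes, 1 row for each symbol, as a fixed list of names in which no measured value serves as a threshold, though results of these data were known when the list was drawn up. K562 is an established human cell line from a chronic myelogenous leukemia in blast crisis, and all samples come from this single line. Cells were treated for 48 h with the vehicle DMSO, with CBP30 at 2 or 5 µM, or with I-CBP112 at 2 or 5 µM. Both compounds bind the bromodomains of CREBBP and EP300, a pair of histone acetyltransferases that act as transcriptional co-activators. Polyadenylated RNA of 2 biological replicates was sequenced for each of the 5 conditions, giving 10 samples, and all 4 treatments are compared with the same 2 DMSO samples.

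K562 cells carry the Philadelphia translocation, which joins the first exons of BCR to ABL1 and yields a constitutively active tyrosine kinase. In normal erythroid progenitors, erythropoietin binds its receptor EPOR, the receptor-bound kinase JAK2 phosphorylates STAT5A and STAT5B, and these factors enter the nucleus as dimers. In cells with BCR-ABL, STAT5 is phosphorylated without the cytokine. STAT5 is known to induce PIM1, a serine/threonine kinase that favours survival, and CISH, SOCS2 and SOCS3, which bind activated receptors or JAK kinases and damp the signal. RNA levels do not show phosphorylation, and none was measured in these samples.

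STAT5 dimers are known to bind the palindrome TTCNNNGAA, and GATA-family factors of erythroid cells bind AGATAA. The 250 bases upstream of the annotated starts in the RefSeq promoter table (GRCh38.p14) were searched for both, on both strands. No match of one motif overlapped a match of the other. The table held 15 windows for 9 of the 10 genes, with several starts for JAK2, STAT5A and SOCS3, and none was matched for SOCS2. TTCNNNGAA was found in 1 of these 15 windows, that of CISH, which held 4 copies. Of all 35116 windows in the table, 6.57% held at least 1 copy and 0.0142% (5 windows) held at least 4. AGATAA was found in 1 of the 15 windows, that of EPOR, against 9.17% of all windows. A match is a string of letters in a window and not a measured binding site. The windows of CISH (chr3:50611775-50612024, minus strand) and EPOR (chr19:11384315-11384564, minus strand) are printed because they hold the matches, and those of PIM1 (chr6:37169902-37170151, plus strand) and SOCS3 (chr17:78360926-78361175, minus strand) because these genes are also known STAT5 targets. Each runs 5′ to 3′ toward the gene, with matches of either motif in capitals.
CISH: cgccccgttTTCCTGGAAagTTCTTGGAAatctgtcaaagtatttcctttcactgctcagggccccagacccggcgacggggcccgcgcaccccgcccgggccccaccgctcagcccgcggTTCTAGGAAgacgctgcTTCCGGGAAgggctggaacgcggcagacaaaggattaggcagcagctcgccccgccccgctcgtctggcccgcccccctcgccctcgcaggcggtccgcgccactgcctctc
EPOR: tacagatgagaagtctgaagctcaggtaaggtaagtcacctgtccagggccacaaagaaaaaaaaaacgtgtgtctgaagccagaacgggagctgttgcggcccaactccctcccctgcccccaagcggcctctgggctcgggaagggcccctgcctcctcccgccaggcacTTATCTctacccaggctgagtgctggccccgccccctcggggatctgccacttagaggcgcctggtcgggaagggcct
PIM1: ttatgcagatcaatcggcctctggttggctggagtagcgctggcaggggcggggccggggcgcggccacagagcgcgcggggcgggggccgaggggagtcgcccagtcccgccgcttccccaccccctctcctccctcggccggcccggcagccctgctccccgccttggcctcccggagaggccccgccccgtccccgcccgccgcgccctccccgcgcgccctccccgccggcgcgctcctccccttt
SOCS3: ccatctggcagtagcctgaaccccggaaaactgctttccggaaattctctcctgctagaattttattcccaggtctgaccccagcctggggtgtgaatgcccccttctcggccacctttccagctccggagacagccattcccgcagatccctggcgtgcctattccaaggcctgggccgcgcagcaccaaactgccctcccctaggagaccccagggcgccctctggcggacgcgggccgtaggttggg
In these letters, 2 copies of TTCNNNGAA lie near the distal end of the CISH window and 2 in its middle, and the AGATAA match of EPOR reads TTATCT on the printed strand.

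The values are FPKM, fragments relative to transcript length and to the size of the library, which the authors computed on the hg19 genome. How the libraries were scaled to each other is not given in the sources used here. Differences are given on the log2(FPKM + 1) scale with the standard error (SE) of limma, and a gene was called when its Benjamini-Hochberg adjusted p over 12788 tested genes was under 0.05. All 10 genes passed the filter of a mean of at least 0.5 FPKM. Depth was approximated by taking values of FPKM times transcript length between 25 and 75, in genes with 1 annotated transcript, as 1 read. This gives about 18200000 to 21200000 reads per library and about 112 to 312 reads for EPOR, the least deeply covered of the 10. The range of 25 to 75 was set beforehand and bounds the result, so these figures are no measurement of depth. The erythroid identity of the cells was visible in all libraries: the 8 other genes listed as erythroid markers were all detected and summed to 1727 and 1777 FPKM in DMSO. The sum was 611 to 802 FPKM with 2 µM CBP30, 571 to 598 with 5 µM CBP30, 996 to 1103 with 2 µM I-CBP112 and 957 to 1037 with 5 µM I-CBP112. Of 9 markers of other cell types, MS4A1 and KRT5 were at 0 in all samples, 6 others, among them CD3E, CD14, ALB, COL1A1 and PECAM1, stayed at or below 3.31 FPKM, and EPCAM stood at 31.8 to 59.7 FPKM. The 9 summed to 61.6 and 62.6 FPKM in DMSO and to 38.1 and 39.6 with 5 µM CBP30. This sum was mostly EPCAM, whose mean fell from 59.2 to 32.4 FPKM. CD3E (1.10 to 3.23 FPKM) and COL1A1 (0.481 to 1.92 FPKM) were called higher with 5 µM CBP30.

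The 2 samples of 2 µM CBP30 differed from each other more than other pairs. In replicate 1, values fell with the length of the transcript relative to the other libraries (Spearman's rho over 12130 genes −0.535, a description with no test), against −0.0453 in replicate 2. The rho was 0.309 and 0.307 in the 5 µM CBP30 samples, 0.205 in replicate 1 of 2 µM I-CBP112 and between −0.0854 and 0.0765 in the other 5. BCR, ABL1, JAK2 and STAT5B have longest transcripts of 6719 to 7345 bases, so their values with CBP30 are also given after a smooth trend with length was removed from each sample. Since 1 estimate of spread serves all groups, the pair of 2 µM CBP30 samples also widens the error of comparisons in which it takes no part.

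With CBP30, EPOR, JAK2 and STAT5B were called lower and PIM1, CISH and SOCS2 higher at both concentrations. BCR and ABL1 were called lower at 2 µM alone and STAT5A at 5 µM alone. At 2 µM STAT5A differed by −0.17, close to the −0.20 of STAT5B, though only STAT5B was called. Each call was also made under 17 alternative settings. These are 7 changes of processing and the omission of each of the 10 samples in turn. The calls of STAT5B and ABL1 at 2 µM and of PIM1 at 5 µM did not hold in most of these settings. At 2 µM CBP30, 8 of the 10 genes were called, 5 lower (BCR, ABL1, EPOR, JAK2, STAT5B) and 3 higher (PIM1, CISH, SOCS2), against 32.1% of all tested genes (16.3% lower and 15.9% higher). The same 8 of 10 count was obtained without replicate 1 of this group, when STAT5A was called in place of STAT5B, while 4 were called without DMSO replicate 2 and 2 in a fit of these 2 groups alone. At 5 µM CBP30, 7 were called, 4 lower (EPOR, JAK2, STAT5A, STAT5B) and 3 higher (PIM1, CISH, SOCS2), against 46.6% of all tested genes (25.4% lower and 21.2% higher). With the length trend removed it was 9, with ABL1 lower and SOCS3 higher in addition. At 2 µM I-CBP112, 1 was called (EPOR, lower), against 1.6% of all tested genes (0.735% lower and 0.868% higher), and the count was 4 when either 2 µM CBP30 sample was left out and 0 when any other was. At 5 µM I-CBP112, 2 were called (EPOR lower, SOCS2 higher), against 7.12% of all tested genes (3.28% lower and 3.84% higher). The count with 5 µM I-CBP112 was 9 when either 2 µM CBP30 sample was left out of the fit, and 0 to 1 when any other sample was left out. The samples of treatment and DMSO did not overlap for 9, 10, 9 and 10 of the 10 genes in these 4 comparisons, against 61.9%, 82.1%, 53.3% and 64.2% of all tested genes. Non-overlap of 2 against 2 samples was thus common throughout the table.

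**Figure D1:**
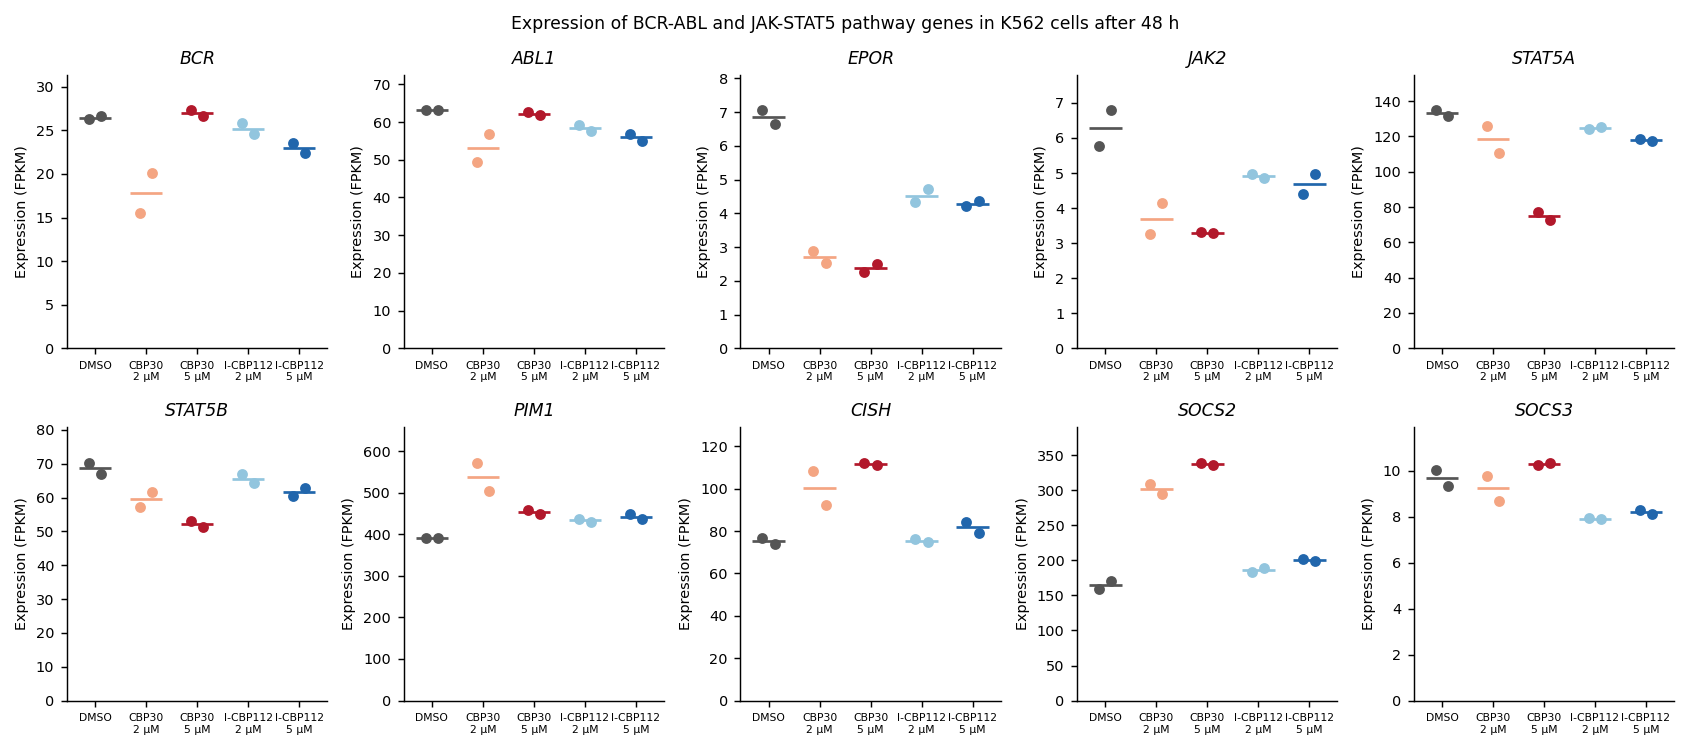
Expression in FPKM (vertical axes, from 0) of the 10 genes in the 5 conditions (horizontal axes); points are the 2 samples of a condition and bars their mean. EPOR falls from 6.85 FPKM in DMSO to 2.38 with 5 µM CBP30, and SOCS2 rises from 165 to 338.

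**Figure D2:**
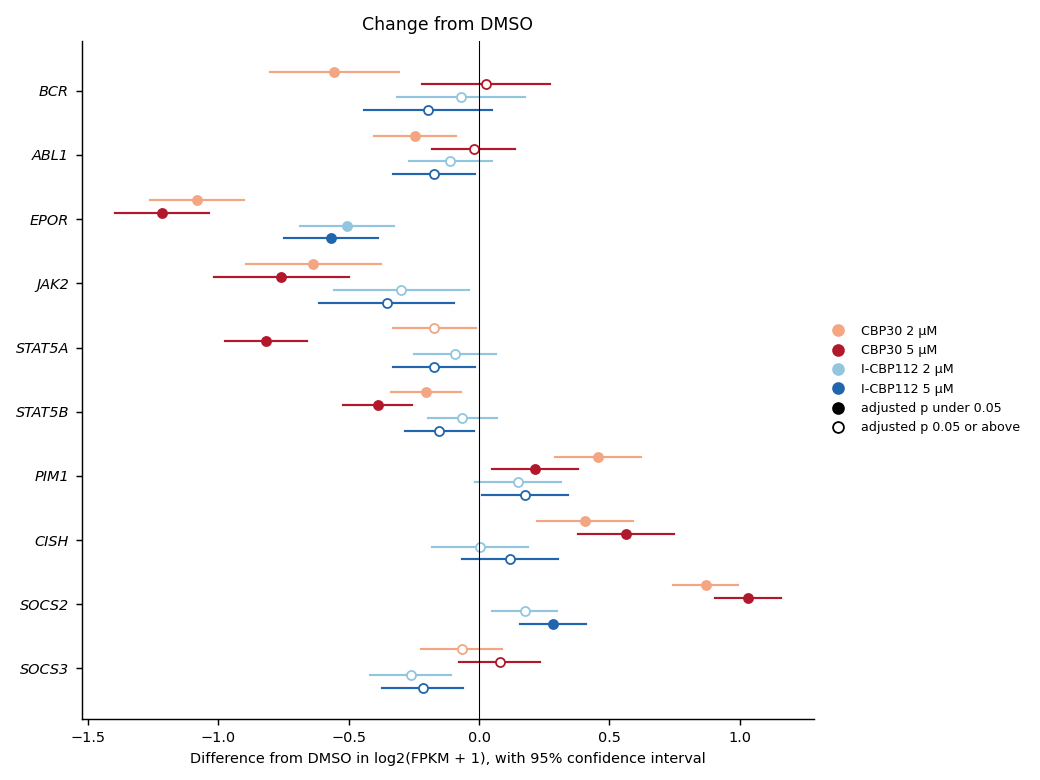
Difference of each treatment from DMSO in log2(FPKM + 1) for the 10 genes, with 95% confidence intervals from limma; filled points have an adjusted p under 0.05. The largest falls are those of EPOR (−1.22 with 5 µM CBP30) and the largest rise that of SOCS2 (1.03), and the I-CBP112 points of both lie between the CBP30 points and 0.

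BCR (chr22:23521891-23660224, plus strand; positions from here on are for GRCh37, which is hg19) codes for a GTPase-regulating protein whose first exons form the start of the fusion. ABL1 (chr9:133588430-133763062, plus strand) codes for the tyrosine kinase that forms the remainder. The fusion transcript and the normal transcripts of both genes cannot be told apart in these values, since the table holds 1 value per gene. BCR stood at 26.3 and 26.7 FPKM in DMSO, 15.6 and 20.1 with 2 µM CBP30, 27.3 and 26.7 with 5 µM CBP30, 25.9 and 24.5 at 2 µM I-CBP112, and 23.6 and 22.4 at 5 µM I-CBP112. ABL1 stood at 63.1 in both DMSO samples, 49.5 and 56.9 with 2 µM CBP30, 62.7 and 61.8 with 5 µM CBP30, 59.3 and 57.6 at 2 µM I-CBP112, and 56.9 and 54.9 at 5 µM I-CBP112. For both genes the 2 µM CBP30 samples included the lowest values, and the 5 µM samples of the same compound lay close to DMSO.

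At 2 µM CBP30, BCR fell to 67.4% of its DMSO mean (log2 difference −0.55, SE 0.10, adjusted p = 0.00813) and ABL1 to 84.3% (−0.25, SE 0.07, adjusted p = 0.031). Neither was called at 5 µM CBP30, where BCR differed by 0.03 (95% confidence interval −0.22 to 0.27) and ABL1 by −0.02 (−0.18 to 0.14). With the length trend removed BCR differed by −0.08 at 5 µM and was not called, while ABL1 fell by 0.12 (adjusted p = 0.0216), the single call among its 17 settings there (0.0216 to 0.951). From 2 to 5 µM CBP30, BCR rose by 0.58 (SE 0.10, adjusted p = 0.00833) and ABL1 by 0.23 (SE 0.07, adjusted p = 0.0368). The fall of BCR at 2 µM was −0.43 with the length trend removed and −0.38 without replicate 1, and it was called in 15 of 17 alternative settings. That of ABL1 was −0.12 with the trend removed and was called in 7 of 17, with adjusted p from 0.000567 to 0.212. With the trend removed, ABL1 differed by only 0.001 between the concentrations (adjusted p = 0.983; range over the 17 settings 0.000519 to 0.983), so its return at 5 µM was not seen on that scale.

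The ratio of ABL1 to BCR expression was 2.38 ± 0.0254 (SD, n = 2) in DMSO and 3.01 ± 0.245 with 2 µM CBP30. The longest annotated transcripts of the 2 genes have 6719 and 6783 bases. Both values mix fusion and normal transcripts, so this likeness does not show the ratio to be free of differences between libraries. The individual ratios with 2 µM CBP30 were 3.18 and 2.83, above the range of 2.29 to 2.46 in the other 8 samples. The ratio was 2.31 with 5 µM CBP30, 2.32 with 2 µM I-CBP112 and 2.43 with 5 µM I-CBP112. No test was made of this ratio.

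**Figure D3:**
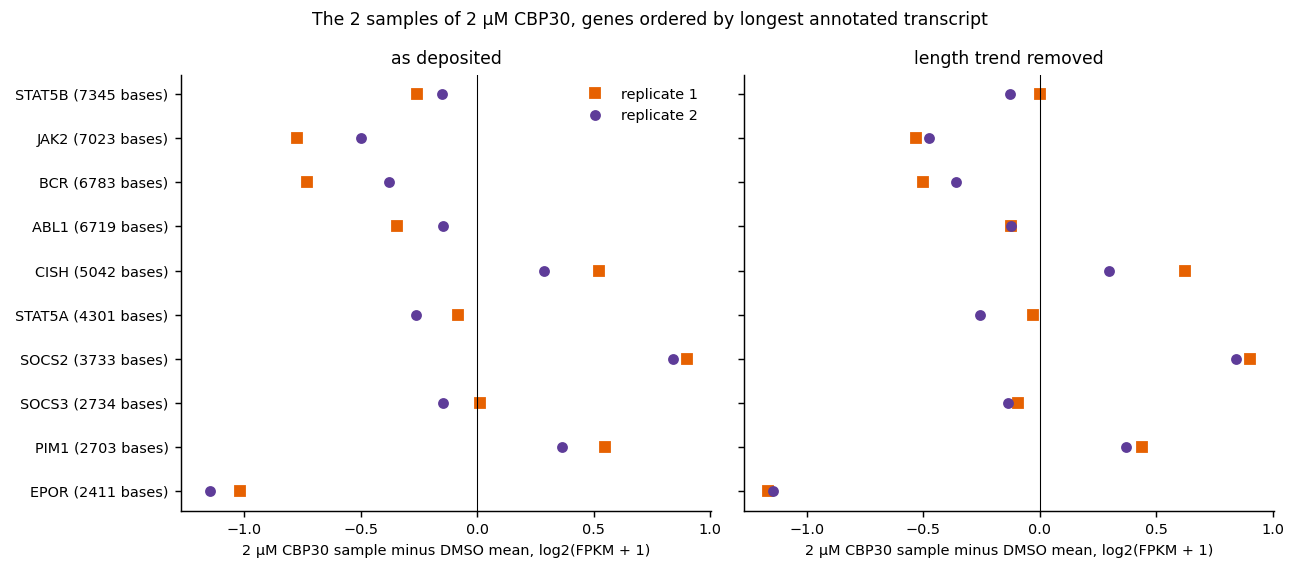
Each 2 µM CBP30 sample minus the DMSO mean in log2(FPKM + 1) (horizontal axes) for the 10 genes, ordered by the longest annotated transcript (vertical axis), as deposited (left) and with the length trend removed (right). For BCR the samples lie at −0.73 and −0.38 as deposited and at −0.50 and −0.36 with the trend removed, while for SOCS2 they lie at 0.90 and 0.84 on both scales. For CISH they lie further apart with the trend removed (0.62 and 0.30) than as deposited (0.52 and 0.29), as do those of STAT5A and STAT5B.

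EPOR (chr19:11487883-11495018, minus strand), the receptor for erythropoietin, was the member called in all 4 treatments. Its level was 7.06 and 6.63 FPKM in DMSO, 2.87 and 2.54 with 2 µM CBP30, 2.25 and 2.50 with 5 µM CBP30, 4.33 and 4.73 at 2 µM I-CBP112, and 4.21 and 4.36 at 5 µM I-CBP112. The 3 sets of samples (DMSO, I-CBP112 and CBP30) did not overlap, with I-CBP112 in the middle. CBP30 lowered EPOR to 39.5% of DMSO at 2 µM (log2 difference −1.08, SE 0.08, adjusted p = 0.000194) and to 34.7% at 5 µM (−1.22, SE 0.08, adjusted p = 3.78e-05). Both calls held in all 17 alternative settings.

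I-CBP112 lowered EPOR to 66.1% of DMSO at 2 µM (−0.51, SE 0.08, adjusted p = 0.0279) and to 62.6% at 5 µM (−0.57, SE 0.08, adjusted p = 0.00758). The 2 µM call held in 5 of the 17 settings (adjusted p from 0.00834 to 0.215) and the 5 µM call in 14 (0.00185 to 0.0722), all with the same sign. The concentrations of 1 compound could not be separated: 5 µM minus 2 µM was −0.13 for CBP30 (95% confidence interval −0.31 to 0.05) and −0.06 for I-CBP112 (−0.24 to 0.12). EPOR is one of the erythroid genes, and most erythroid markers moved with it. KLF1, an erythroid transcription factor, had a mean of 65.3 FPKM in DMSO, 22.2 and 8.44 at the lower and higher CBP30 concentration, and 36.8 and 29.4 at those of I-CBP112, and HBZ, an embryonic globin, had 609, 143, 84.6, 297 and 260 in the same order. TAL1 went the other way at 5 µM CBP30, from 17.4 to 23.8 FPKM (log2 difference 0.43, adjusted p = 0.00127). The part of the erythroid program in the fall of EPOR was not tested. In bulk RNA, fewer cells with a transcript and less of it per cell cannot be told apart.

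JAK2 (chr9:4984390-5129948, plus strand), the kinase bound to EPOR and related receptors, was low in all samples. Its level was 5.78 and 6.79 FPKM in DMSO, 3.25 and 4.15 with 2 µM CBP30, 3.31 and 3.28 with 5 µM CBP30, 4.96 and 4.87 at 2 µM I-CBP112, and 4.41 and 4.98 at 5 µM I-CBP112. Every treated sample was below both DMSO samples. The CBP30 samples were below all I-CBP112 samples. JAK2 fell to 58.8% of DMSO with 2 µM CBP30 (−0.64, SE 0.11, adjusted p = 0.00581) and to 52.4% with 5 µM CBP30 (−0.76, SE 0.11, adjusted p = 0.00135). The 5 µM call held in all 17 settings and the 2 µM call in 16.

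With I-CBP112, JAK2 stood at 78.1% of DMSO at 2 µM and 74.7% at 5 µM, and neither difference was called, though that at 5 µM was in 3 of the 17 settings. The 95% confidence intervals of these differences were −0.56 to −0.04 and −0.62 to −0.10 on the log2 scale. The length trend touched JAK2 at 2 µM CBP30, where the samples were −0.78 and −0.50 from the DMSO mean as deposited and −0.53 and −0.47 with the trend removed. At 5 µM CBP30 the difference of JAK2 from DMSO was −0.87 with the trend removed. Between the CBP30 concentrations JAK2 differed by −0.12 and was not called, but by −0.37 with the trend removed (adjusted p = 0.011; range over the 17 settings 0.011 to 0.903), the single setting in which it was called.

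STAT5A (chr17:40439565-40463961, plus strand) and STAT5B (chr17:40351194-40440651, minus strand) code for near-identical transcription factors from neighbouring genes that overlap at their starts by 1087 bases. Reads shared by the paralogs could have been split between them in ways the values do not show, and whether strand was used in counting is not given in the sources used here. STAT5A stood at 135 and 131 FPKM in DMSO, 126 and 111 with 2 µM CBP30, 77.3 and 72.8 with 5 µM CBP30, 124 and 125 at 2 µM I-CBP112, and 118 and 117 at 5 µM I-CBP112. STAT5B stood at 70.3 and 66.9 in DMSO, 57.2 and 61.7 with 2 µM CBP30, 53.0 and 51.3 with 5 µM CBP30, 66.9 and 64.3 at 2 µM I-CBP112, and 60.5 and 62.7 at 5 µM I-CBP112. For STAT5A the 5 µM CBP30 samples stood apart from the other 8, and for STAT5B they were the lowest by a smaller margin.

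At 5 µM CBP30, STAT5A fell to 56.4% of DMSO (−0.82, SE 0.07, adjusted p = 0.000111) and STAT5B to 76.0% (−0.39, SE 0.06, adjusted p = 0.00135), and both calls held in all 17 settings. At 2 µM, STAT5A was at 88.9% (−0.17, SE 0.07) and was not called, and STAT5B fell to 86.7% (−0.20, SE 0.06, adjusted p = 0.0318). The 2 µM call of STAT5B was lost with the length trend removed (−0.06, adjusted p = 0.409) and without replicate 1 (−0.15, adjusted p = 0.0536), and held in 5 of 17 settings (range 0.00524 to 0.409). STAT5A fell further from 2 to 5 µM CBP30 by 0.65 on the log2 scale (SE 0.07, adjusted p = 0.00157). STAT5B fell by 0.19 (SE 0.06, adjusted p = 0.0389), a call that held in 5 of 17 settings. With the length trend removed, STAT5B was −0.50 from DMSO at 5 µM CBP30, and its fall between the concentrations was 0.44 on the log2 scale (adjusted p = 0.00197; range over the 17 settings 0.00197 to 0.713).

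The ratio of STAT5A to STAT5B was 1.94 ± 0.034 (SD, n = 2) in DMSO and 1.44 ± 0.0264 with 5 µM CBP30. Its mean was 2.00 ± 0.284 (SD, n = 2) with 2 µM CBP30 and it was between 1.86 and 1.96 in the 4 I-CBP112 samples. The 2 samples at 5 µM CBP30 had the lowest ratios of the 10, and the ratio was not tested.

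PIM1 (chr6:37137928-37143204, plus strand) had the highest level of the 10 genes in every sample. It stood at 391 FPKM in both DMSO samples, 572 and 503 with 2 µM CBP30, 459 and 449 with 5 µM CBP30, 437 and 430 at 2 µM I-CBP112, and 448 and 436 at 5 µM I-CBP112. All 8 treated samples were above DMSO, and the 2 µM CBP30 samples were the highest. PIM1 rose to 138% of DMSO at 2 µM CBP30 (0.46, SE 0.07, adjusted p = 0.00356), which held in 16 of 17 settings. Its rise to 116% at 5 µM (0.22, SE 0.07, adjusted p = 0.0396) held in 7 of 17, with adjusted p from 0.000458 to 0.162.

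From 2 to 5 µM CBP30 PIM1 fell by 0.24 (SE 0.07, adjusted p = 0.0335), but the direction depended on the scaling. Under quantile normalization, which gives every library the same distribution of values, the difference was 0.10 (adjusted p = 0.156; range over the 17 settings 0.000403 to 0.232). Values summed over all genes were 689095 FPKM in replicate 1 of 2 µM CBP30, 547504 and 551586 in the 5 µM CBP30 samples, and between 594701 and 620641 in the other 7. With I-CBP112, PIM1 was at 111% and 113% of DMSO, and neither difference was called.

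CISH (chr3:50643920-50649205, minus strand) codes for a cytokine-inducible SH2 protein that binds activated receptors. It stood at 76.7 and 73.9 FPKM in DMSO, 108 and 92.2 with 2 µM CBP30, 112 and 111 with 5 µM CBP30, 76.3 and 74.8 at 2 µM I-CBP112, and 84.4 and 79.3 at 5 µM I-CBP112. The 4 CBP30 samples were above all others, and the 2 µM I-CBP112 samples fell within the range of DMSO. CISH rose to 133% of DMSO with 2 µM CBP30 (0.41, SE 0.08, adjusted p = 0.00895) and to 148% with 5 µM CBP30 (0.56, SE 0.08, adjusted p = 0.00112). The 5 µM call held in all 17 settings and the 2 µM call in 15. With I-CBP112 the differences from DMSO were 0.01 at 2 µM (95% confidence interval −0.18 to 0.19) and 0.12 at 5 µM (−0.07 to 0.30), and neither was called. CISH overlaps MAPKAPK3 on the opposite strand by 255 bases.

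SOCS2 (chr12:93963590-93977263, plus strand), a suppressor of cytokine signalling best known for damping growth hormone receptor signals, had the largest rise of the 10 genes with CBP30. It stood at 160 and 170 FPKM in DMSO, 308 and 296 with 2 µM CBP30, 340 and 337 with 5 µM CBP30, 184 and 189 at 2 µM I-CBP112, and 202 and 200 at 5 µM I-CBP112. All treated samples were above DMSO, and CBP30 was above I-CBP112 at each concentration. CBP30 raised SOCS2 to 183% of DMSO at 2 µM (0.87, SE 0.05, adjusted p = 0.000103) and 205% at 5 µM (1.03, SE 0.05, adjusted p = 1.72e-05), and both calls held in all 17 settings. SOCS2 overlaps the noncoding gene SOCS2-AS1 on the opposite strand by 1955 bases. SOCS2-AS1 has no value of its own here, and whether its reads entered those of SOCS2 is not known.

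The further rise of SOCS2 from 2 to 5 µM CBP30 was 0.16 (SE 0.05, adjusted p = 0.0472) and held in 4 of 17 settings. With I-CBP112 SOCS2 was at 113% of DMSO at 2 µM, which was not called, and rose to 122% at 5 µM (0.28, SE 0.05, adjusted p = 0.0245). That last call held in 8 of 17 settings, with adjusted p from 0.00489 to 0.168.

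SOCS3 (chr17:76352859-76356158, minus strand), the suppressor that binds JAK2 and receptors of the gp130 family, was low in all samples. It stood at 10.1 and 9.36 FPKM in DMSO, 9.80 and 8.68 with 2 µM CBP30, 10.2 and 10.4 with 5 µM CBP30, 7.95 and 7.89 at 2 µM I-CBP112, and 8.30 and 8.12 at 5 µM I-CBP112. The I-CBP112 samples were the 4 lowest. SOCS3 was not called in any treatment against DMSO as deposited. In the 17 alternative settings it was called higher in 1 at 5 µM CBP30 (0.14 with the length trend removed, adjusted p = 0.038; range 0.038 to 0.799) and lower in 3 at each I-CBP112 concentration, which are the removal of the trend and of either 2 µM CBP30 sample (adjusted p down to 0.0212 at 2 µM and 0.0175 at 5 µM). The log2 differences were −0.07 (95% confidence interval −0.22 to 0.09) and 0.08 (−0.08 to 0.23) for CBP30 at 2 and 5 µM, and −0.26 (−0.42 to −0.11) and −0.22 (−0.37 to −0.06) for I-CBP112.

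In DMSO the order of levels was PIM1 (391 FPKM), SOCS2 (165), STAT5A (133), CISH (75.3), STAT5B (68.6), ABL1 (63.1), BCR (26.5), SOCS3 (9.71), EPOR (6.85) and JAK2 (6.29). Among neighbours in this order the 2 samples overlapped for EPOR and JAK2 alone. With 5 µM CBP30 SOCS2 (338 FPKM) was still second to PIM1 (454), but CISH (112) was above STAT5A (75.1).

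The 2 compounds were then compared with each other at matched concentrations, over 10 genes at 2 concentrations, with p adjusted over all 12788 genes tested in each comparison. At 2 µM, 5 of the 10 genes were called, 2 lower with CBP30 than with I-CBP112 (BCR, EPOR) and 3 higher (PIM1, CISH, SOCS2), against 15.6% of all tested genes (8.45% lower and 7.13% higher). At 5 µM, 7 were called, 4 lower with CBP30 (EPOR, JAK2, STAT5A, STAT5B) and 3 higher (CISH, SOCS2, SOCS3), against 31.4% (17.9% lower and 13.6% higher). EPOR, CISH and SOCS2 were called at both concentrations with the same sign. Under quantile normalization the calls were 3 lower and 2 higher at 2 µM and 3 lower and 4 higher at 5 µM. The 2 µM count was 9 without replicate 2 of 2 µM CBP30, 2 without either 2 µM I-CBP112 sample, 3 without any sample of the 3 other groups and 0 in a fit of the 2 groups alone, and the 5 µM count was 4 without any 1 of the 4 samples compared. Samples of the compounds did not overlap for 9 genes at 2 µM and all 10 at 5 µM, against 55.3% and 78.9% of all tested genes.

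EPOR with CBP30 was 59.8% of its level with I-CBP112 at 2 µM (−0.58, SE 0.08, adjusted p = 0.00583) and 55.5% at 5 µM (−0.65, SE 0.08, adjusted p = 0.00128). SOCS2 was 162% at 2 µM (0.69, SE 0.05, adjusted p = 0.000932) and 168% at 5 µM (0.75, SE 0.05, adjusted p = 0.000188). CISH was 133% at 2 µM (0.40, SE 0.08, adjusted p = 0.0197) and 137% at 5 µM (0.44, SE 0.08, adjusted p = 0.006). The 5 µM calls of all 3 genes, and that of STAT5A (63.7%, −0.65, SE 0.07, adjusted p = 0.000767), held in all 17 settings.

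Other differences between the compounds were smaller or less stable. JAK2 at 5 µM was 70.2% with CBP30 (−0.40, SE 0.11, adjusted p = 0.0304), held in 10 of 17 settings, and STAT5B was 84.7% (−0.24, SE 0.06, adjusted p = 0.0194), held in 12. SOCS3 at 5 µM was 126% with CBP30 (0.30, SE 0.07, adjusted p = 0.015), held in 13 of 17, though it had not been called against DMSO as deposited with either compound. At 2 µM, BCR was 70.8% (−0.49, SE 0.10, adjusted p = 0.0266), held in 8, and PIM1 124% (0.31, SE 0.07, adjusted p = 0.0311), held in 7. The comparisons at 5 µM that were not called had intervals of −0.02 to 0.47 for BCR, −0.01 to 0.31 for ABL1 and −0.13 to 0.20 for PIM1.

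**Figure D4:**
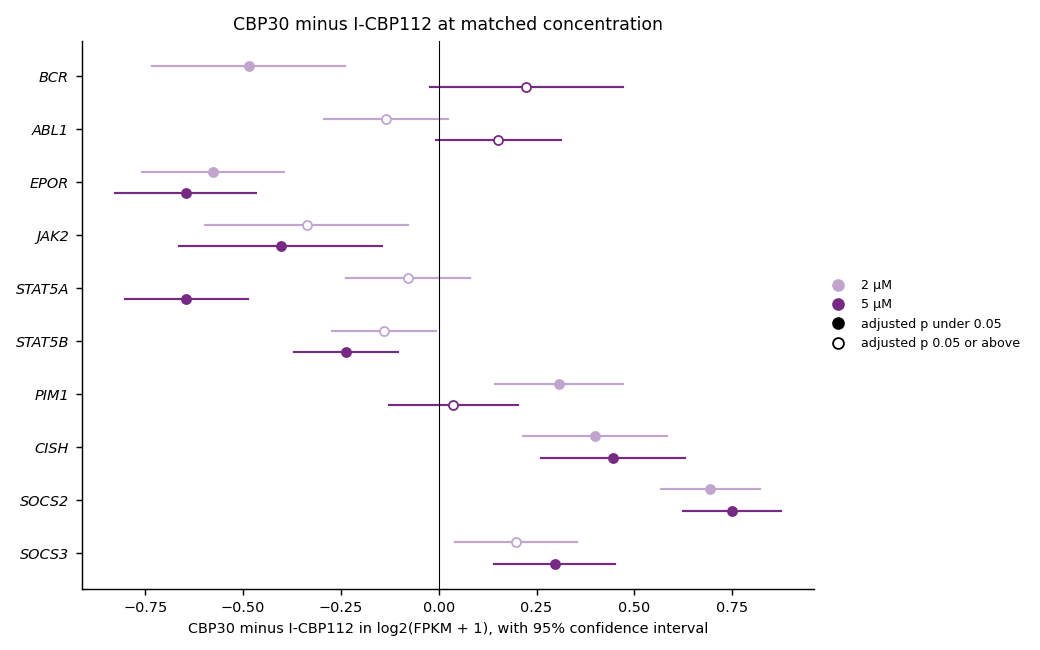
CBP30 minus I-CBP112 in log2(FPKM + 1) for the 10 genes at 2 and 5 µM, with 95% confidence intervals from limma; filled points have an adjusted p under 0.05. EPOR lies at −0.58 and −0.65 and SOCS2 at 0.69 and 0.75, while STAT5A lies at −0.08 at 2 µM and −0.65 at 5 µM.

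The STAT5 genes were lower and BCR was higher at 5 than at 2 µM CBP30 in the fit over all groups. Between these concentrations 6 of the 10 genes were called, 3 lower (STAT5A, STAT5B, PIM1) and 3 higher (BCR, ABL1, SOCS2), against 38.9% of all tested genes (21.3% lower and 17.6% higher). Without replicate 1 of 2 µM CBP30 the count was 8, and without replicate 2 it was 5. Under quantile normalization 1 was lower and 4 higher. In a fit of the 2 CBP30 groups alone, 0 of the 10 genes were called, and 6 of all tested genes in place of 4979. With the length trend removed the count was 7, without ABL1 and with JAK2 (lower) and SOCS3 (higher, 0.25). When any 1 of the DMSO or I-CBP112 samples was left out it was 2, and it was 1 without either 5 µM CBP30 sample. From 2 to 5 µM I-CBP112, limma called 0 of the 10 genes, against 0.0626% of all tested genes (0.00782% lower and 0.0547% higher), and 0 of the 10 had an unadjusted p under 0.05. The samples did not overlap for 9 genes between the CBP30 concentrations and for 7 between those of I-CBP112, against 70.4% and 46.3% of all tested genes.

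The rest of the pathway was described with 5 lists of 77 genes in all, of which 62 passed the filter. Their values are as deposited, without removal of the length trend. Spearman's rho with transcript length was 0.309 and 0.307 in the 5 µM CBP30 samples. The part of this trend in the list counts and medians was not tested. Their counts are to be read against the shares of all tested genes called, which were 16.3% lower and 15.9% higher with 2 µM CBP30, 25.4% and 21.2% with 5 µM CBP30, 0.735% and 0.868% at 2 µM I-CBP112, and 3.28% and 3.84% at 5 µM I-CBP112. Among 13 tested JAK-coupled cytokine receptors of 21 listed, 5 µM CBP30 lowered 3 and raised 6, against 25.4% and 21.2% of all tested genes, with a median log2 difference of 0.18 against −0.01 over all tested genes. IL6ST, which codes for the shared receptor chain gp130, rose from 4.59 and 5.08 FPKM in DMSO to 23.1 and 23.7 (2.07, adjusted p = 4.27e-05), and LIFR, which pairs with it, rose from 3.46 to 9.07 (1.18, adjusted p = 0.000816). The leptin receptor LEPR fell from 58.9 to 26.8 FPKM (−1.11, adjusted p = 0.000281) and the receptor of G-CSF, CSF3R, from 1.80 to 0.573 (−0.83, adjusted p = 0.000274). The receptors of GM-CSF and IL-3 were not tested, with CSF2RA and IL3RA listed at 0 and their shared chain CSF2RB under the filter. With 2 µM CBP30, 3 receptors were lower and 5 higher, with 5 µM I-CBP112 none was lower and 2 were higher (IL6ST and IL4R), and with 2 µM I-CBP112 none of the 13 was called.

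Among the 6 tested of 8 other JAK kinases and STATs, 4 rose with 5 µM CBP30 and 0 fell, against 25.4% of all tested genes lower and 21.2% higher, with a median of 0.23 against −0.01 over all tested genes. STAT2, which carries interferon signals, rose from a mean of 10.7 FPKM in DMSO to one of 15.8 (0.53, adjusted p = 0.000623). STAT6, which carries IL-4 signals, rose by 0.24 (adjusted p = 0.0064) and the kinase TYK2 by 0.20 (adjusted p = 0.0306). The STAT5 genes thus fell at this concentration while STAT2 and STAT6 were higher. At 2 µM CBP30, 1 gene of this list was called, STAT3, lower (−0.21), and at 5 µM I-CBP112, STAT3 was called higher (0.30).

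Among 17 tested of 18 other negative regulators, 5 µM CBP30 lowered 2 and raised 8, against 25.4% of all tested genes lower and 21.2% higher, with a median of 0.28 against −0.01 over all tested genes. SOCS1, which inhibits JAK kinases directly, rose more than any of the 10 genes above: it stood at 31.8 and 32.9 FPKM in DMSO, 175 and 112 with 2 µM CBP30, 117 and 115 with 5 µM CBP30, 53.4 and 52.0 at 2 µM I-CBP112, and 66.2 and 66.1 at 5 µM I-CBP112. All treated samples were above DMSO. The rise of SOCS1 was 2.08 (SE 0.17, adjusted p = 0.000328) and 1.81 (SE 0.17, adjusted p = 0.000224) with 2 and 5 µM CBP30, and 1.01 (SE 0.17, adjusted p = 0.0181) at 5 µM I-CBP112, and it was not called at 2 µM I-CBP112. PIAS1, a protein inhibitor of activated STAT factors, rose by 0.42 with 5 µM CBP30 (adjusted p = 0.0238), as did the phosphatase PTPN6 (0.42, adjusted p = 0.016) and SOCS4 (0.38, adjusted p = 0.0244). At 2 µM CBP30, 3 of the list were lower and 2 higher, at 5 µM I-CBP112 1 was lower and 1 higher, and at 2 µM I-CBP112 none of the 17 was called.

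Among 17 tested of 19 adaptors and partner kinases of BCR-ABL, 5 µM CBP30 lowered 4 and raised 6, against 25.4% of all tested genes lower and 21.2% higher, with a median of 0.14 against −0.01 over all tested genes. The tested PI3-kinase subunits did not move alike. PIK3R1, a regulatory subunit, rose from 4.31 to 9.46 FPKM (0.98, adjusted p = 0.000357), and PIK3CB, a catalytic subunit, fell from 24.3 to 14.5 FPKM (−0.71, adjusted p = 0.000394). PIK3R2, also regulatory, had a mean of 21.8 FPKM in DMSO and 23.1 with 5 µM CBP30, and PIK3CA, also catalytic, 14.3 and 14.8. GAB2, a docking protein required for transformation by BCR-ABL, fell from 32.9 to 22.3 FPKM (−0.54, adjusted p = 0.00491), and ABI2, an ABL interactor, rose from 20.8 to 32.3 (0.61, adjusted p = 0.0011). At 2 µM CBP30, 4 were lower and 2 higher, and no gene of this list was called by limma with I-CBP112 at either concentration.

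Of 9 tested among 11 other genes known as STAT5 targets, 5 µM CBP30 lowered 3 and raised 4, against 25.4% and 21.2% of all tested genes, with a median of 0.29 against −0.01, so that the list did not move in 1 direction. BCL2L1, which codes for the survival protein BCL-XL, rose from 98.0 and 99.2 FPKM to 141 and 144 (0.53, adjusted p = 0.000367). The transferrin receptor TFRC fell from 158 to 104 FPKM (−0.60, adjusted p = 0.00234), PIM3, a relative of PIM1, from 24.1 to 16.4 FPKM (−0.53, adjusted p = 0.0332), and cyclin D2 (CCND2) from 13.9 to 10.1 FPKM (−0.42, adjusted p = 0.00235). TFRC is also counted among the erythroid markers above. With 5 µM I-CBP112, 1 of the 9 was called (BCL2L1, 0.30, adjusted p = 0.0239), with 2 µM CBP30 2 were lower and 2 higher, and with 2 µM I-CBP112 none was called.

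**Figure D5:**
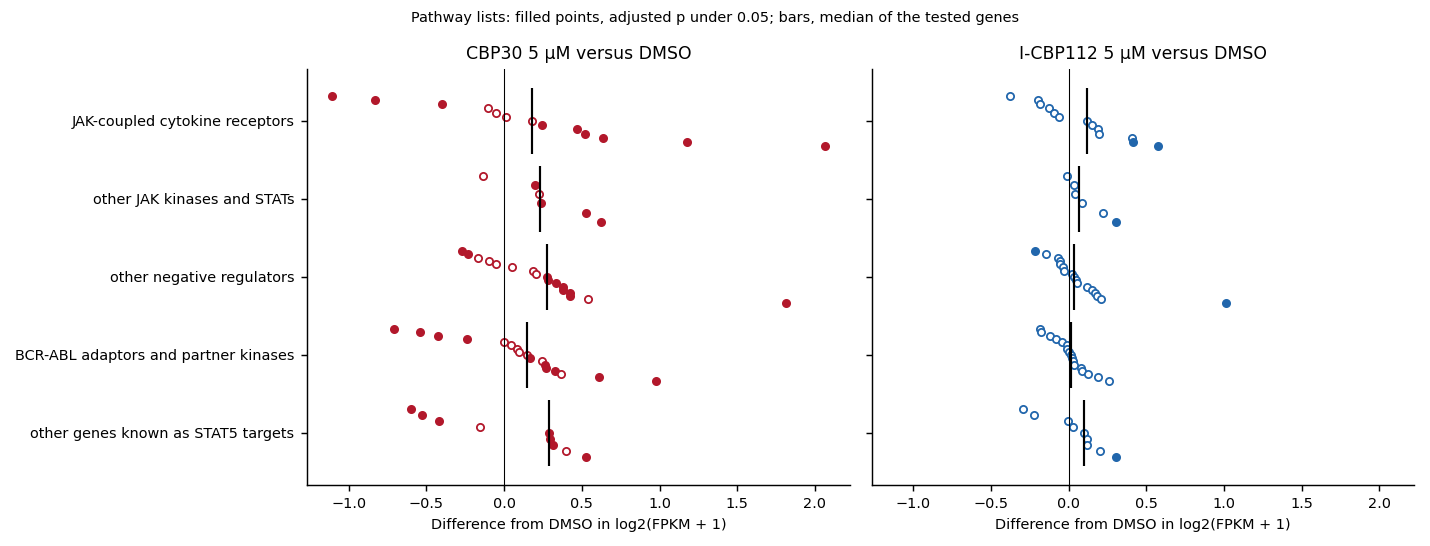
Difference from DMSO in log2(FPKM + 1) (horizontal axes) of each tested gene of the 5 lists (vertical axis) with 5 µM CBP30 (left) and 5 µM I-CBP112 (right); filled points have an adjusted p under 0.05 and black bars are list medians. The rightmost points are IL6ST (2.07) among the receptors and SOCS1 (1.81) among the negative regulators with CBP30.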

How the data were processed

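RNA of K562 cells was sequenced by the study in 5 conditions with 2 biological replicates each, from stranded polyadenylated libraries with single reads of 50 bases. The authors deposited 1 FPKM value per gene and sample, without pooling. Per the submitters' processing notes and the paper's methods, the hg19 genome was used within Nextpresso, together with FastQC, TopHat2 2.0.10, Bowtie 1.0.0, SAMtools 0.1.19, Cufflinks 2.2.1 and Cuffnorm. The gene annotation, the use of strand in counting and the scaling of the libraries by Cuffnorm are not given in the sources used here. Depth was approximated from the median of FPKM times length among values of 25 to 75 in genes with 1 transcript, a range set beforehand. Read counts were not used here, so no counting error was derived. The precision therefore comes from the spread within pairs of replicates.

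limma 3.58.1 (R 4.3.3) was applied to log2(FPKM + 1), a scale that understates changes of low genes. The variance prior followed expression (trend option of eBayes) and added 2.15 degrees of freedom to the 5 residual ones of a fit over all groups. A gene entered if its mean over the samples reached 0.5 FPKM (12788 genes). There were 8 comparisons: each treatment with DMSO, 5 with 2 µM of each compound, and the compounds at each concentration. The fit was tested on simulated data.

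Alternatives were a pseudocount of 0.1, no filter, median centring, quantile normalization, a separate fit for each pair of groups, a replicate block, removal of a smooth trend with transcript length (known for 12130 tested genes from GENCODE, hg19), and omission of each sample. The 10 genes and the pathway and marker lists were chosen with earlier results of these data known. All 10 were named, with up to 4 genes per pathway list with the largest change at 5 µM CBP30 among those called, and for genes called in 2 or more treatments the 3 tested genes of at least 5 FPKM with the nearest pattern. IL4R, STAT3, PIK3R2, PIK3CA and the marker genes were named outside this rule. A few genes of these lists are not reported here by name. Python 3.11.15, pandas 2.3.3 and matplotlib 3.10.9 served for tables and plots.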

Additional observations from a re-analysis of the deposited data

How the results depend on the processing

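Over the 10 genes and 8 comparisons, 36 of 80 differences were called, and 12 of these were called in all 17 alternatives: EPOR and SOCS2 with CBP30 at both concentrations, JAK2, STAT5A, STAT5B and CISH with 5 µM CBP30, and EPOR, STAT5A, CISH and SOCS2 between the compounds at 5 µM. In the 7 changes of processing, 496 differences kept their direction and their side of the threshold, 40 were no longer called, 18 were newly called and 6 changed sign. In the omissions of a sample the counts were 650, 112, 32 and 6.

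The cause of the changes below was not tested. The number of the 10 genes called with 2 µM CBP30 was 2 in a fit of only the groups compared, which has 2 residual degrees of freedom, in place of 8, and the number of all genes called was 307 in place of 4111. For 2 µM I-CBP112 it was 0 with no filter, with quantile normalization, with only the groups compared and with the replicate block, and 2 with the length trend removed, in place of 1. All genes called there were 28 with only these groups, 111 with the block and 455 with the trend removed, in place of 205. For 5 µM I-CBP112 it was 5 with only these groups, 1 with the block and 6 with the trend removed, in place of 2, and all genes called were 1661 with only these groups and 1590 with the trend removed, in place of 910. Between the CBP30 concentrations it was 0 with only these groups and 3 with the block, in place of 6, and 6 in place of 4979 for all genes with only these groups. Between the compounds at 2 µM it was 0 with only these groups in place of 5, and 14 in place of 1993 for all genes. At 5 µM all genes called were 6556 with only these groups in place of 4020. Between the I-CBP112 concentrations all genes called were 13 with no filter and 14 with only these groups, in place of 8.

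Over the omissions of each sample, the number of the 10 genes called ranged from 4 to 8 with 2 µM CBP30, 6 to 7 with 5 µM CBP30, 0 to 4 with 2 µM I-CBP112, 0 to 9 with 5 µM I-CBP112, 1 to 8 between the CBP30 concentrations, 0 to 0 between those of I-CBP112, and 2 to 9 and 4 to 9 between the compounds at 2 and 5 µM. All genes called ranged from 1914 to 7260, 4069 to 8049, 34 to 1160, 200 to 2937, 1031 to 7958, 6 to 25, 380 to 6792 and 1849 to 6672 in the same order.

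Signs changed in small differences. With quantile normalization, ABL1 with 5 µM CBP30 was 0.10, PIM1 from 2 to 5 µM CBP30 0.10 and PIM1 from 2 to 5 µM I-CBP112 −0.024. With the length trend removed, BCR with 5 µM CBP30 was −0.077, EPOR from 2 to 5 µM CBP30 0.014 and STAT5B between the compounds at 2 µM 0.0063. When 1 sample was omitted, SOCS3 with 2 µM CBP30 ranged from −0.14 to 0.013, CISH with 2 µM I-CBP112 from −0.021 to 0.032, JAK2 from 2 to 5 µM CBP30 from −0.26 to 0.016, JAK2 from 2 to 5 µM I-CBP112 from −0.13 to 0.016, and STAT5A between the compounds at 2 µM from −0.17 to 0.012.

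Same-numbered samples did not deviate together: the correlation of their deviations from the group means was −0.07 to 0.09 over 10 pairs of groups, so they share only a number. With the replicate block, 7, 7, 0, 1, 3, 0, 5 and 7 of the 10 genes were called in the 8 comparisons, in the order above.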

Other observations

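Genes with the pattern most like those of the 10 over the 10 samples were found by the root mean square (RMS) difference of centred log2(FPKM + 1) among 8740 genes. For EPOR, whose own RMS deviation was 0.44, the nearest were TTLL12 (RMS difference 0.075; 63.4 FPKM in DMSO and 27.3 with 5 µM CBP30), RAB6B (0.0796) and SERPINE2 (0.0834). For JAK2 they were ZNF792 (0.0505), PUS7 (0.0665) and ABCE1 (0.0673). For STAT5B they were ANKZF1 (0.033), VPS52 (0.034) and GTPBP5 (0.0356).

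For PIM1 the nearest were TAF12 (0.0362), FLOT1 (0.0381) and ARPC1A (0.0395), all highest with 2 µM CBP30. For CISH they were GRN, the gene of progranulin (0.0463; 56.3 FPKM in DMSO and 84.6 with 5 µM CBP30), CETN2 (0.0519) and PRMT2 (0.052). For SOCS2 they were MAGED2 (0.0701; 17.0 FPKM in DMSO and 33.7 with 5 µM CBP30), FUCA1 (0.0851) and ALAD, an enzyme of heme synthesis (0.0912). These are descriptions of 10 samples that share the same treatments. The values were as deposited, without rescaling or removal of the length trend. The part of differences between libraries in these matches was not tested.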
